A study of Mus musculus with 9 samples.

Results

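The unfolded protein and heat shock responses were followed in bone-marrow-derived macrophages (BMDMs) through 10 genes, *Hspa5*, *Hsp90b1*, *Ddit3*, *Atf4*, *Xbp1*, *Herpud1*, *Dnajb9*, *Trib3*, *Hspa1a* and *Hspa1b*. They were picked by symbol from the 24061 gene symbols of the count table, and the reads of all rows with a symbol were summed, where 1 row is 1 RefSeq transcript. The RNA-seq experiment had 3 groups of 3 libraries, each from a separately differentiated culture. In every group the cells came from C57BL/6J female mice 8 to 10 weeks old, were differentiated for 7 days with 20% L-cell medium and 10% fetal bovine serum, and were then held without serum in 4% L-cell medium. On day 8, T0+LPS cells received 500 nM T0901317 (T0), a synthetic agonist of the liver X receptors (LXRs), for 3 hr, followed by 10 ng/mL lipopolysaccharide (LPS), the bacterial agonist of Toll-like receptor 4, for 2 hr. LPS cells received the solvent DMSO and the same dose of LPS, and Veh cells received no LPS. No group with T0 and without LPS was analysed here, and the time at which Veh cells were collected is not given in the sources used here. The questions were how the 10 genes differed after LPS, and whether T0 changed their levels in LPS-treated cells.

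The unfolded protein response senses misfolded protein in the endoplasmic reticulum (ER) through the membrane proteins PERK, IRE1 and ATF6. PERK phosphorylates the translation factor eIF2α, which slows translation in general and allows the transcription factor ATF4 and then CHOP to be made, IRE1 cuts an intron out of *Xbp1* mRNA in the cytoplasm, and ATF6 is released from the membrane by proteolysis. Together these switch on ER chaperones and ER-associated degradation (ERAD), the export of misfolded protein to the proteasome. In the heat shock response the transcription factor HSF1 switches on chaperones of the cytosol, such as the inducible HSP70 proteins that *Hspa1a* and *Hspa1b* encode. Macrophages stimulated through Toll-like receptors raise the output of secreted and membrane proteins, which pass through the ER.

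Each library held between 13299044 and 16467983 counted reads, so counting error is small for *Hsp90b1* and large for genes with few counted bases. Known responders followed the treatments: relative to Veh, the LPS-induced genes *Il1b* and *Ptgs2* were higher after LPS by 9.34 and 9.23 on the log2 scale, and relative to LPS, the LXR targets *Abca1* and *Abcg1* were higher in T0+LPS by 1.47 and 2.09. Macrophage markers summed to between 23889 and 30241 CPM (counts scaled to library size) in the 9 libraries, with reads for 6 of the 7 markers analysed and none for *Itgam*. *Adgre1* was not analysed here. Markers of neutrophils, B cells, T cells, dendritic cells, fibroblasts, erythroid cells and mast cells summed to at most 3.93, 2.45, 0.079, 3.12, 0.662, 0.331 and 0.079 CPM in any library. Levels are given as CPM scaled by TMM factors, which put the bulk of genes at the same level in each library. In bulk RNA, fewer cells of a type and less RNA per cell cannot be told apart.

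What was counted differed between the 10 genes. Reads on a base that several rows share are not in the deposited counts: of 32850 rows, 6696 had no base of their own, and 0 of these held a read. *Hsp90b1*, *Herpud1*, *Dnajb9*, *Trib3*, *Hspa1a* and *Hspa1b* each had 1 row of 1865 to 2810 bases, none of them shared with another row. Over 9 libraries, *Trib3* had 1195 reads, the fewest, and *Hsp90b1* 105296, the most. *Hspa1a* and *Hspa1b* are near-identical in sequence, and how reads that fit both were treated is not given in the sources used here. The 4 remaining genes had 2 rows each and were counted on a small window. *Hspa5* was counted on 82 of 2616 bases (chr2:34772147-34772228, mm10, + strand), all 5′ untranslated sequence in the GENCODE annotation, with 239 reads. *Atf4* was counted on 283 of 1729 bases (chr15:80255285-80255567, + strand), also 5′ untranslated, with 37 reads. *Ddit3*, which encodes CHOP, was counted on 48 of 871 bases (chr10:127293712-127293759, + strand), with 69 reads.

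**Figure D1:**
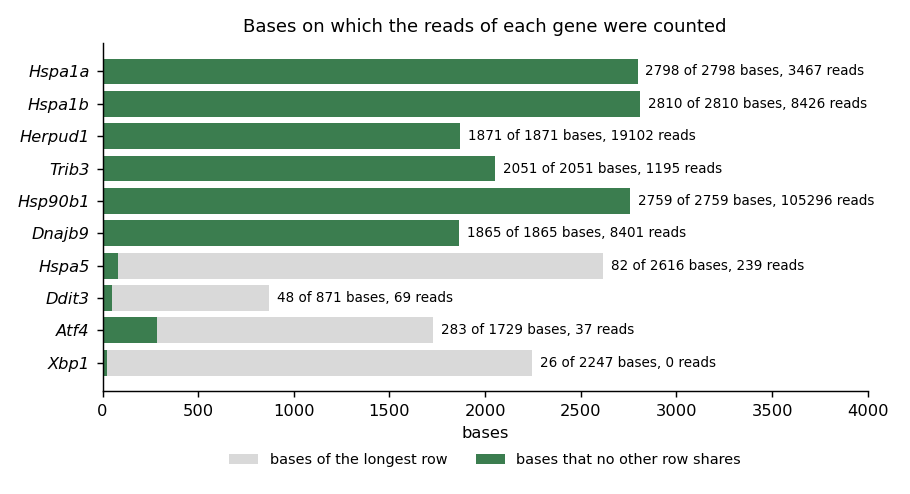
Bases on which each of the 10 genes was counted. The x axis gives bases; grey bars are the length of the gene's longest row and green bars the bases that no other row shares, with the reads summed over 9 libraries written beside them. The 6 genes with 1 row shared no base with another row, and *Hspa5*, *Ddit3*, *Atf4* and *Xbp1* had 82, 48, 283 and 26 bases of their own.

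For *Xbp1*, the transcription factor of the IRE1 branch, the only bases with no second row were 26 coding bases at chr11:5524282-5524307 (+ strand), the intron that IRE1 removes and by which the unspliced and spliced rows differ. The stretch chr11:5524262-5524327 is shown with those 26 bases in capitals, from the mouse GENCODE transcripts of the same build, because it is the whole of what the count of this gene can rest on.
Xbp1: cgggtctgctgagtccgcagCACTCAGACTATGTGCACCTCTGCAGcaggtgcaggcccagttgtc
A read that runs past either end of the capitals lies on both rows. All 9 libraries had 0 reads for *Xbp1*, so neither its level nor its splicing was measured.

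Relative to Veh, LPS was associated with higher transcripts of the HSP70 genes and of *Herpud1*, smaller rises of *Trib3* and *Hsp90b1*, and a lower level of *Dnajb9*. *Hspa1b* was 12.5-fold higher (95% interval 11.3 to 13.8), *Hspa1a* 9.67-fold (8.39 to 11.2) and *Herpud1* 5.71-fold (5.30 to 6.15). *Trib3* was 1.47-fold and *Hsp90b1* 1.11-fold higher, and *Dnajb9* was lower by 16.7%. Of the 10 genes, 8 passed the filter on low counts, 5 were called higher and 1 lower at an adjusted p under 0.05, and 2 were not called. Among all 9559 symbols tested, 32.9% were called higher and 31.2% lower, so a call in this comparison was common. The HSP70 genes and *Herpud1* had large differences: 153, 188 and 285 of the 9559 symbols had a larger log2 fold change than *Hspa1b*, *Hspa1a* and *Herpud1*. The median log2 fold change of the 8 genes tested was 0.54, against -0.00 over all symbols. This median only describes the 8 genes, which were chosen with earlier results of these data known. They include the near-identical *Hspa1a* and *Hspa1b*, and *Ddit3*, which passed the filter only through Veh.

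The HSP70 genes were low in Veh. *Hspa1b* stood at 7.97, 7.15 and 7.94 CPM in the 3 Veh libraries, at 91.8, 98.7 and 97.8 CPM in LPS, and at 96.4, 104 and 104 CPM in T0+LPS. *Hspa1a* stood at 3.58, 3.77 and 3.88 CPM in Veh, at 35.6, 38.6 and 34.3 CPM in LPS, and at 43.0, 47.7 and 41.9 CPM in T0+LPS. In both genes every LPS library lay far above every Veh library, and 33.6% of all symbols tested likewise had every LPS library higher. The log2 fold change of LPS over Veh was 3.64 (SE 0.07, adjusted p = 7.5e-17, edgeR quasi-likelihood test) for *Hspa1b* and 3.27 (SE 0.10, adjusted p = 2.6e-14) for *Hspa1a*. Both genes are single-exon genes of chromosome 17 on the - strand, *Hspa1a* at 34969359 to 34972156 and *Hspa1b* at 34956429 to 34959238.

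*Herpud1*, an ER membrane protein that helps assemble the ERAD machinery, stood at 34.1, 34.0 and 36.3 CPM in Veh and rose to 194, 203 and 198 CPM in LPS (log2 fold change 2.51, SE 0.05, adjusted p = 1.6e-16, edgeR). Its 8 exons lie at chr8:94386500-94395358 on the + strand. *Dnajb9*, a J-domain cochaperone of BiP in the ER lumen, went the other way, with 68.0, 70.1 and 66.4 CPM in Veh and 55.4, 59.1 and 55.2 CPM in LPS. The LPS libraries were all lower, as for 33.7% of all symbols, and the log2 fold change was -0.26 (SE 0.05, adjusted p = 0.00031). The range of this value without each library in turn was -0.31 to -0.24.

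Of the ER chaperones, *Hsp90b1* (GRP94), which folds secreted and membrane proteins including Toll-like receptors, was the most abundant of the 10 genes and changed little. Its levels were 737, 747 and 744 CPM in Veh and 832, 819 and 808 CPM in LPS, a log2 fold change of 0.14 (SE 0.04, adjusted p = 0.0031, edgeR). When libraries were scaled by their total counts alone, *Hsp90b1* was lower after LPS (-0.14, adjusted p = 0.0027), so its direction rests on the scaling. That scaling moved the median of all symbols to -0.28. *Hspa5* encodes BiP, the main ER chaperone of the HSP70 family which also binds the stress sensors at rest. On its 82 counted bases it had 27, 20 and 26 reads in Veh and 15, 38 and 28 in LPS. The ranges overlapped, the log2 fold change was 0.53 (SE 0.28, 95% interval -0.06 to 1.12, adjusted p = 0.11), and without LPS replicate 1 it was 0.79 (adjusted p = 0.015).

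In the PERK branch, *Trib3*, a pseudokinase that ATF4 and CHOP induce, stood at 6.79, 6.02 and 7.36 CPM in Veh and 10.4, 9.32 and 10.0 CPM in LPS. No LPS library was as low as any Veh library, and the log2 fold change was 0.56 (SE 0.12, adjusted p = 0.00058, edgeR). *Ddit3* had 15, 11 and 13 reads in Veh and 7, 6 and 4 in LPS on its 48 bases. The LPS libraries were all below the Veh libraries, but *Ddit3* passed the filter only through Veh, and its log2 fold change of -0.80 (SE 0.37, 95% interval -1.59 to -0.02) did not pass the test (adjusted p = 0.067). Scaled by library totals it did (-1.08, adjusted p = 0.014). *Atf4*, whose protein is set mainly by translation of its mRNA, had 3, 3 and 9 reads in Veh and 2, 7 and 2 in LPS, too few to test.

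**Figure D2:**
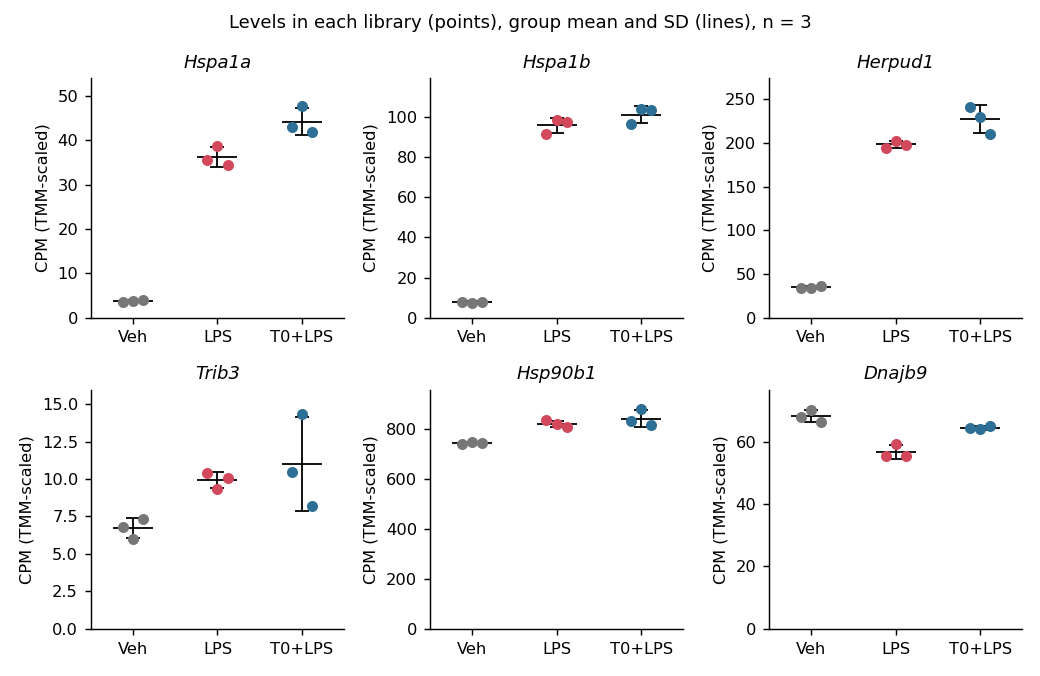
Levels of the 6 genes whose rows share no base with another row, with *Hspa1a* and *Hspa1b* each uncertain because reads can fit both. Each point is 1 library, the y axis is CPM scaled by TMM factors from 0, and lines give the mean and SD of 3 libraries. *Hspa1a*, *Hspa1b* and *Herpud1* sit far higher in LPS and T0+LPS than in Veh, *Dnajb9* is lowest in LPS, and the small rise of *Hsp90b1* turns to a fall of 0.14 (log2) under scaling by library totals.

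Levels can be compared per kilobase of row between the 6 genes with 1 row, with a limit for *Hspa1a* and *Hspa1b*. Of windows of 75 bases in the *Hspa1a* transcript, 55.9% occur without change in *Hspa1b*. Whether reads from there were counted is not known. The levels per kb, places in the order and percentiles of these copies are therefore uncertain. In Veh the order was *Hsp90b1* at 269 ± 1.80 CPM per kb (SD, n = 3), *Dnajb9* at 36.5 ± 1.01, *Herpud1* at 18.6 ± 0.703, *Trib3* at 3.28 ± 0.328, *Hspa1b* at 2.74 ± 0.167 and *Hspa1a* at 1.34 ± 0.054, and no neighbours in this order overlapped. In LPS, *Hsp90b1* at 297 ± 4.45 CPM per kb was followed by *Herpud1* at 106 ± 2.24 and *Hspa1b* at 34.2 ± 1.33, ahead of *Dnajb9* at 30.4 ± 1.18. *Hspa1a* followed at 12.9 ± 0.788 and *Trib3* was last at 4.84 ± 0.265, and again no neighbours overlapped. The order in T0+LPS was the same as in LPS, with *Hspa1b* at 36.1 ± 1.52 and *Dnajb9* at 34.5 ± 0.320 CPM per kb now overlapping. Among 13502 symbols with a read and at least 200 counted bases, the percentile of the level per kb was 45.9 in Veh and 82.8 in LPS for *Hspa1b*, 39.5 and 67.2 for *Hspa1a*, 74.7 and 94.2 for *Herpud1*, and 98.4 and 98.1 for *Hsp90b1*.

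The upstream sequences of the genes with the largest differences, and of both ER chaperones for comparison, are shown with motif matches in capitals. Each is the 250 bases before the RefSeq start (GRCm38.p6), written 5′ to 3′ on the gene's strand. *Herpud1* is at chr8:94386179-94386428 (+), *Hspa1a* at chr17:34972157-34972406 (-), *Hspa1b* at chr17:34959239-34959488 (-), *Hspa5* at chr2:34771840-34772089 (+) and *Hsp90b1* at chr10:86705445-86705694 (-). For *Herpud1* the start in this table lies upstream of the start of the counted transcript, chr8:94386500, and its distances are counted from the start in the table.
Herpud1: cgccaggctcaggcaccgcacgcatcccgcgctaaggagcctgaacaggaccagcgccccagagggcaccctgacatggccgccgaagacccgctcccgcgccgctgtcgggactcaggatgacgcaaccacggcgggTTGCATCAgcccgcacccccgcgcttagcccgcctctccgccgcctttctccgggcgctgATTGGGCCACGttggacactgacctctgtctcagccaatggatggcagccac
Hspa1a: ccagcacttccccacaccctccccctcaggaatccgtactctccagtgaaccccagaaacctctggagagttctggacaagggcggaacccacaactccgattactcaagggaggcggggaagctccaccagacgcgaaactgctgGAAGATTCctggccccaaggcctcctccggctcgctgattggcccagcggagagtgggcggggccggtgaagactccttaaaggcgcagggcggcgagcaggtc
Hspa1b: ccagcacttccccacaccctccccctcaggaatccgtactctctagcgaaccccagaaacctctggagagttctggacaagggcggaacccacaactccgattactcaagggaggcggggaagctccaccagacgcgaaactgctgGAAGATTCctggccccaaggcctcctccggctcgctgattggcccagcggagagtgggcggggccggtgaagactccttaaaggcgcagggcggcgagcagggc
Hspa5: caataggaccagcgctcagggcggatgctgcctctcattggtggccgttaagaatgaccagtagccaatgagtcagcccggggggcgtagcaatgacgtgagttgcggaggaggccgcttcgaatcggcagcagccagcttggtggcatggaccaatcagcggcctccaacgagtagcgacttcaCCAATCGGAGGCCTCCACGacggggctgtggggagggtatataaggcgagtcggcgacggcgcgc
Hsp90b1: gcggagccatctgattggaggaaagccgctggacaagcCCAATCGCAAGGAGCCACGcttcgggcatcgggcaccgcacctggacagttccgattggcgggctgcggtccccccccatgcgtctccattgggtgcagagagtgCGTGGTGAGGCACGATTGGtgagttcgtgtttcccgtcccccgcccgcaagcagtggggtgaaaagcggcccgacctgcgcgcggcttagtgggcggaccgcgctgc
All 10 genes had such a window among the 32851 windows searched on both strands. The ER stress element, CCAAT and CCACG with 9 bases between, bound by NF-Y and ATF6, was found in 0.113% of all windows and in 2 of the 10, with 1 match in *Hspa5* from 65 to 47 bases before the start and a pair in *Hsp90b1*, from 212 to 194 and, on the other strand, from 107 to 89. In *Herpud1*, the second ER stress element, ATTGG and CCACG with 1 base between (0.0304% of windows), lay from 52 to 42 bases before the start, and the C/EBP-ATF element TGATGNAA (3.45%) lay on the other strand from 112 to 105. The *Herpud1* window ends in CCAAT, 9 bases and CCAC, so a first ER stress element that runs past its edge could not be seen. *Hspa1a* and *Hspa1b* had the paired heat shock unit GAANNTTC (6.69%) from 104 to 97 bases before the start. The second ER stress element and the heat shock unit were added after the counts were seen. The heat shock element of 3 units, GAA, TTC and GAA with 2 bases between each (0.466%), the element TGACGTGG (0.563%) of XBP1 and ATF6, the cyclic AMP response element TGACGTCA (1.55%) and the LXR element, AGGTCA repeated after 4 bases (0.0152%), had 0 matches in the 10 windows. A match describes letters and is not a site shown to be bound.

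The other genes of these pathways were taken from 8 lists, without the 10 genes. Of 167 symbols in the count table, 140 were tested, and 80 were called higher and 14 lower after LPS, with a median log2 fold change of 0.18. Over all 9559 symbols tested, 32.9% were called higher and 31.2% lower. Heat shock factors and cytosolic chaperones had 18 of 29 tested genes called higher and 4 lower (median 0.39). *Stip1*, which links HSP70 to HSP90, was the highest of them, at 87.9 ± 1.80 CPM in Veh and 238 ± 8.49 in LPS (log2 fold change 1.44, SE 0.05, adjusted p = 7.2e-14, edgeR). *Hspa4l* (-0.32) and *Hsph1* (-0.19), of the HSP110 family, and the cochaperone *Fkbp4* (-0.16) were called lower. *Hspa4*, of the same family and named here after its value was seen, was called higher (0.38, adjusted p = 5e-07, edgeR). Other genes of the list, named here after their values were seen, had smaller differences than *Hspa1a* and *Hspa1b*: *Dnajb1*, the HSP40 that works with HSP70, had a log2 fold change of 0.14, *Bag3* of 0.15, and *Hsf1* itself of 0.40, while *Hspa8*, the constitutive HSP70, had 0.59 and *Hsp90aa1* 0.46.

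ATF4 and CHOP target genes had 16 of 26 called higher and 3 lower (median 0.39) and the widest spread. The genes called higher, here and over all lists, include *Chac1* and *Cars*, named for their low counts in Veh. *Chac1* stood at 0.425 CPM in Veh and 6.17 in LPS, and *Cars* at 0.520 and 1.01. Neither could pass the filter through Veh alone, so these calls are no support for a rise. The cystine transporter *Slc7a11* stood at 19.7 ± 1.49 CPM in Veh and 420 ± 36.1 in LPS, 21.3-fold higher, and the stress-response gene *Nupr1* at 2.53 ± 0.610 and 43.2 ± 3.72, or 17.0-fold. *Mthfd2*, of mitochondrial one-carbon metabolism, was 2.63-fold higher. In the opposite direction *Atf3*, a transcription factor of the same pathway, stood at 1021 ± 13.2 CPM in Veh and 226 ± 14.5 in LPS (log2 fold change -2.17, SE 0.05, adjusted p = 6.2e-16, edgeR), and *Pck2* (-0.85) and *Gpt2* (-0.66), both enzymes of mitochondrial metabolism, were also lower. Among eIF2α kinases and phosphatase subunits, 5 of 8 were called higher and 2 lower (median 0.51). *Nck1*, an adaptor that binds the phosphatase, was higher by 2.08, and *Ppp1r15a* (GADD34) and *Ppp1r15b*, which direct phosphatase to eIF2α, by 1.36 and 0.81 on the log2 scale. The kinase gene *Eif2ak3*, which encodes PERK, fell from 51.0 ± 1.64 CPM to 25.7 ± 1.78 (log2 fold change -0.99, SE 0.07, adjusted p = 1.2e-09), and *Eif2ak1* was lower by 0.18.

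The lists of the ER itself had small differences. ER chaperones and folding enzymes had 10 of 22 called higher and 2 lower (median 0.13), ERAD 10 of 18 and 2 (median 0.13), ER translocation and signal peptide processing 14 of 20 and none (median 0.21), UPR sensors and transducers 4 of 8 and 1 (median 0.08), and mitochondrial chaperones and proteases 6 of 13 and 1 (median 0.10). *Ero1l* (0.85), the oxidase that drives disulfide formation, and the secreted ER factor *Manf* (0.61) led the folding genes, and *Erp29* was lower by 0.58 on the log2 scale. Among genes with a mean of 5 CPM or more, in ERAD *Sel1l* (0.65), counted on 2.38% of its bases, and the ubiquitin-conjugating enzyme *Ube2j1* (0.63) led, and *Herpud2* (-0.17) and *Erlec1* (-0.14) were lower. *Srp54a* (0.98), which has near-identical copies and is uncertain for that reason, *Ssr3* (0.49) and *Ssr2* (0.38) led the translocation genes, and *Timm17a* (0.81) and *Hspa9* (0.48) the mitochondrial list at the same limit, where the protease gene *Htra2* was lower (-0.22). Of the sensors and transducers, *Ern1* (0.16), *Atf6b* (0.22) and *Creb3* (0.39) were called higher and *Eif2ak3* lower (-0.99). *Atf6* (-0.04), named here after its value was seen, was not called.

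**Figure D3:**
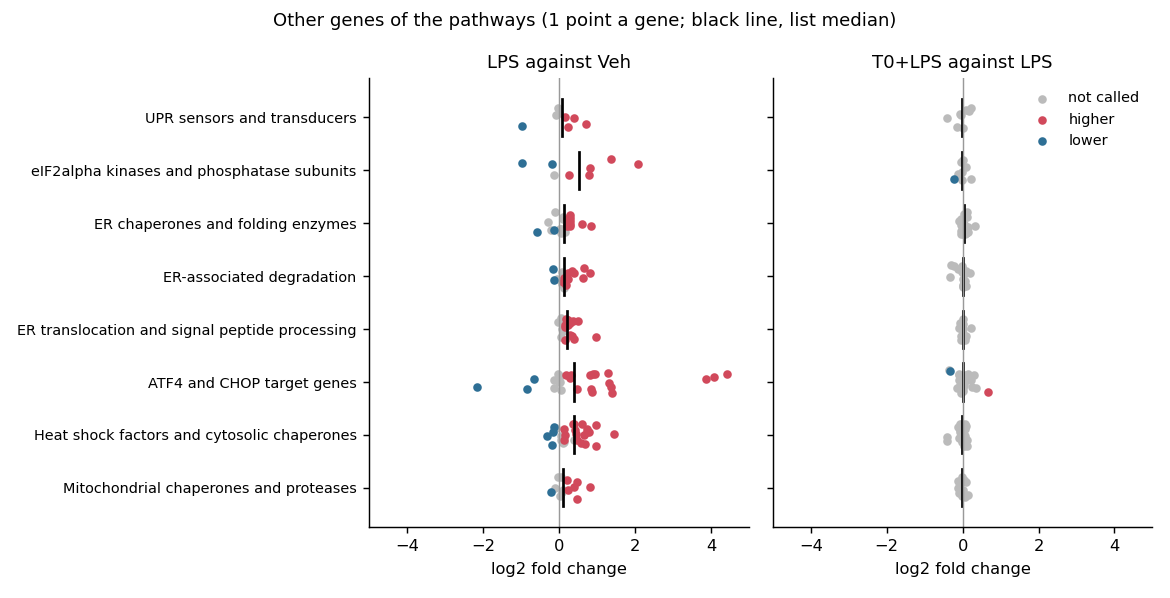
Log2 fold changes of the other pathway genes, 1 point a gene, for LPS over Veh and T0+LPS over LPS on the same x axis. Red and blue points were called higher and lower, grey points were not called, and black lines are list medians, which lie between 0.08 and 0.51 after LPS. Under scaling by library totals more calls of the ER lists are lower than higher, while *Slc7a11* stays higher and *Atf3* lower.

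These small differences rest on the scaling as that of *Hsp90b1* did. With library totals, where all symbols split into 1694 called higher and 5411 lower in place of 3148 and 2981, the lists with the 10 genes included split into 39 higher and 64 lower in place of 85 and 15. The ER chaperone list then had 2 called higher and 13 lower, ERAD 3 and 10, translocation 2 and 8, and sensors 0 and 4. *Ern1* (-0.12) and *Atf6b* (-0.06) changed sign without being called, and *Creld2*, *Ssr2* and *Creb3* were no longer called. *Hspa1a* (2.99), *Hspa1b* (3.36), *Herpud1* (2.23), *Trib3* (0.27), *Stip1* (1.16), *Slc7a11* (4.13) and *Nck1* (1.79) stayed called higher on the log2 scale.

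T0 pretreatment was associated with little change in the 10 genes in LPS-treated cells. *Hspa1a* was the 1 gene called, 1.22-fold higher in T0+LPS than in LPS (95% interval 1.10 to 1.36), and 0 of the 7 tested were called lower, also by DESeq2 or at an unadjusted p under 0.05. Of all 9348 symbols tested, 1.35% were called higher and 1.83% lower, and 13.9% had an unadjusted p under 0.05. *Ddit3*, with 4, 6 and 3 reads in T0+LPS, *Atf4*, with 3, 4 and 4, and *Xbp1* were not tested. *Hspa1a*, *Herpud1* and *Dnajb9* had every T0+LPS library above every LPS library, as 9.51% of all symbols did.

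The 3 T0+LPS libraries were at 43.0, 47.7 and 41.9 CPM of *Hspa1a*, all above the 34.3 to 38.6 CPM of the LPS libraries (log2 fold change 0.29, SE 0.07, adjusted p = 0.042, edgeR). The call was not kept by DESeq2 (adjusted p = 0.0555) or without T0+LPS replicate 1 (0.0691), T0+LPS replicate 2 (0.209), LPS replicate 1 (0.191) or LPS replicate 3 (0.0833), with log2 fold changes of 0.23 to 0.34 over all 6 such fits. *Hspa1b*, at 96.4, 104 and 104 CPM against 91.8, 98.7 and 97.8, overlapped between the groups (log2 fold change 0.08, SE 0.05, adjusted p = 0.59), with a 95% interval of -0.04 to 0.19 on the log2 scale.

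*Herpud1* was 1.15-fold higher in T0+LPS (242, 230 and 211 CPM), with a log2 fold change of 0.20 (SE 0.05, 95% interval 1.06-fold to 1.24-fold) that did not pass the test (adjusted p = 0.066, edgeR). It passed in the fit of all 9 libraries (0.0278), by DESeq2 (0.039), without a filter (0.0073), with the replicate number as a block (0.0459) and without T0+LPS replicate 3 (0.026). *Dnajb9* stood at 64.3, 63.9 and 65.1 CPM in T0+LPS, above the LPS libraries and below the Veh libraries (log2 fold change over LPS 0.19, SE 0.06, adjusted p = 0.098), and passed in the fit of all 9 libraries (0.0422). *Trib3* varied most within T0+LPS, at 10.4, 14.4 and 8.19 CPM, and its log2 difference from LPS of 0.15 had a 95% interval of -0.20 to 0.50 (adjusted p = 0.78). *Hsp90b1*, at 831, 877 and 812 CPM, differed by 0.04 (-0.06 to 0.13, adjusted p = 0.81). *Hspa5*, with 21, 31 and 33 reads, differed by -0.02, with the widest 95% interval, -0.63 to 0.59 (adjusted p = 0.99).

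**Figure D4:**
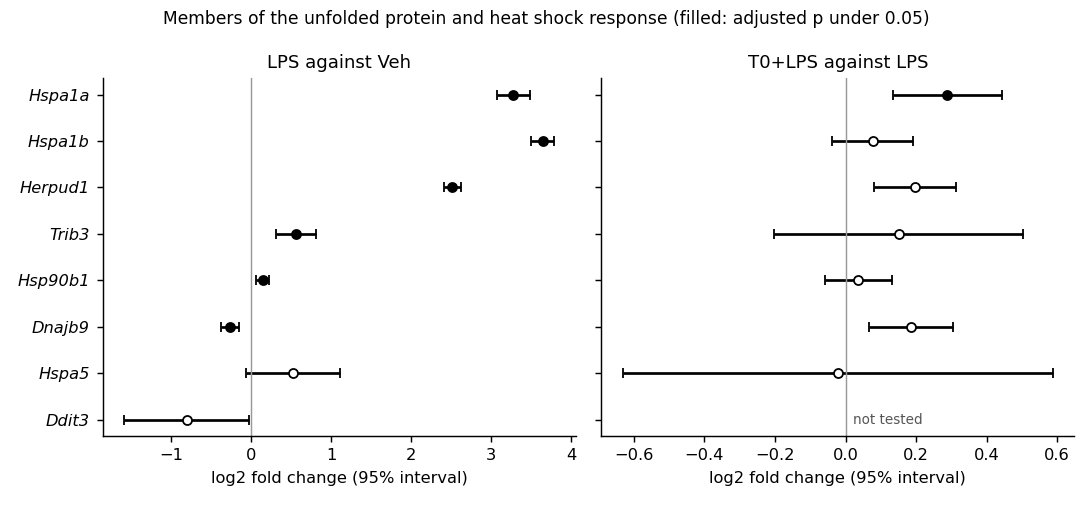
Log2 fold changes of the tested genes with 95% intervals, for LPS over Veh and for T0+LPS over LPS, on x axes of different range. Filled points passed the test at an adjusted p under 0.05 in 3 against 3 libraries. *Hspa1a*, *Hspa1b* and *Herpud1* lie between 2.51 and 3.64 after LPS, and after T0 the 7 tested genes lie between -0.02 and 0.29. The point of *Hsp90b1* for LPS over Veh turns to -0.14 under scaling by library totals.

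Of the other pathway genes, 1 of 140 tested was called higher and 2 lower in T0+LPS relative to LPS (*Atf3*, *Slc7a11* and *Nck1*), with a median of 0.01. Over all 9348 symbols tested, 1.35% were called higher and 1.83% lower, so these counts are near the share over all symbols. *Atf3* stood at 226 ± 14.5 CPM in LPS and 358 ± 25.1 in T0+LPS (log2 fold change 0.66, SE 0.06, adjusted p = 5.3e-06, edgeR). *Slc7a11* stood at 420 ± 36.1 and 330 ± 2.29 CPM (-0.34, adjusted p = 0.0023) and *Nck1* at 163 ± 3.41 and 139 ± 9.16 (-0.24, adjusted p = 0.024). The call of *Nck1* was not kept without T0+LPS replicate 1, T0+LPS replicate 2, LPS replicate 1 or LPS replicate 2. LPS against Veh, which shares the LPS libraries, had given -2.17, 4.41 and 2.08 for these 3 genes.

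*Hspa1a* and *Hspa1b* are near-identical copies, which bears on the difference between their calls. Their coding sequences align over 1926 columns, with 1915 identical (99.4%), 8 substituted and 3 in gaps, and the upstream windows shown above differ at 3 of 250 bases. Of all windows of 75 bases in the *Hspa1a* transcript, 55.9% occur without change in *Hspa1b*, so reads from there cannot be assigned to either gene from their letters. How such reads were treated is not given in the sources used here, and each gene's value is uncertain for that reason. The sum of both does not depend on how such reads were split between the copies, but it would lack them if they were dropped. Which was done is not known. The sum was 11.4 ± 0.466 CPM in Veh, 132 ± 4.93 in LPS and 146 ± 6.18 in T0+LPS (SD, n = 3). As 1 gene the pair was 3.53 higher on the log2 scale in LPS over Veh (adjusted p = 2.43e-17) and not called in T0+LPS over LPS (0.14, adjusted p = 0.216, edgeR).

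The ratio of the copies was compared between groups, and no comparison passed the test. *Hspa1b* had 2.22, 1.89 and 2.04 reads per *Hspa1a* read in Veh, 2.58, 2.56 and 2.85 in LPS, and 2.24, 2.18 and 2.47 in T0+LPS. The LPS libraries lay above all others. The mean was 2.66 ± 0.164 in LPS against 2.05 ± 0.165 in Veh (exact two-sided permutation test, p = 0.1) and 2.30 ± 0.154 in T0+LPS (p = 0.1), each the smallest p that 3 against 3 libraries allow, and T0+LPS and Veh overlapped (p = 0.2). Adjusted over these 3 comparisons, the exact permutation p values were 0.15, 0.15 and 0.2.

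**Figure D5:**
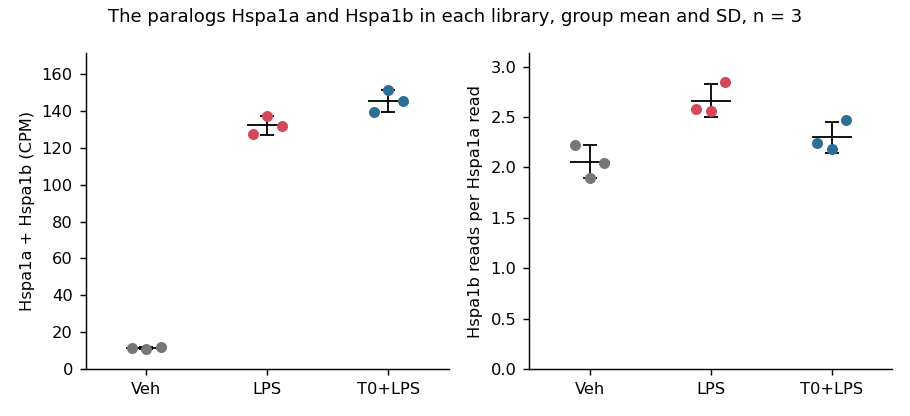
The copies *Hspa1a* and *Hspa1b* in each library. The left panel gives the sum of both in CPM and the right panel the reads of *Hspa1b* per read of *Hspa1a*, with points for libraries and lines for the mean and SD of 3. The sum rises from 11.4 CPM in Veh to 132 in LPS and 146 in T0+LPS, and the ratio is highest in the 3 LPS libraries.

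T0+LPS against Veh shares its libraries with both comparisons above, and gave the same 5 genes as higher. *Hspa1b* was 12.9-fold, *Hspa1a* 11.6-fold, *Herpud1* 6.43-fold and *Trib3* 1.61-fold higher than in Veh, and *Hsp90b1* 1.11-fold (log2 fold change 0.16, adjusted p = 0.0013, edgeR), which reversed with library totals (-0.11, adjusted p = 0.014). Of all 9636 symbols, 32.4% were called higher and 32.9% lower. *Dnajb9*, which was lower in LPS, did not pass here (log2 fold change -0.10, SE 0.04, adjusted p = 0.056), although its T0+LPS libraries were all below the Veh libraries, as 33.8% of all symbols were. *Ddit3* was the 1 gene called lower (-1.30, SE 0.40, adjusted p = 0.0094), on 39 reads in Veh and 13 in T0+LPS. It passed the filter only through Veh, where it was high, so this call is no support for a fall, and it was not called by DESeq2 (0.11) or without T0+LPS replicate 3 (0.0532). *Hspa5* had a log2 fold change of 0.48 (SE 0.23, adjusted p = 0.085), with the T0+LPS libraries above the Veh libraries (as for 35.6% of symbols), and 0.62 without T0+LPS replicate 1 (adjusted p = 0.0415).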

How the data were processed

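The RNA-seq count table was analysed. Libraries were made from polyadenylated RNA. The authors removed adaptors (cutadapt), mapped reads with HISAT2 against mm10 transcripts and ran featureCounts on RefSeq annotation, and the deposited values are whole read counts without normalization. Read length and strand setting are not given in the sources used here. In all, 48 rows were covered whole by rows of the opposite strand only, and 0 of them held a read, so bases shared across strands were not counted either. Further deposited tables hold the authors' own comparisons (ratios and p-values, or gene names alone) and were not used. The ATAC-seq part of the study was not used here.

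Counts were summed per symbol and tested with the quasi-likelihood test of edgeR 4.0.16 (R 4.3.3), with TMM factors (1.14 in Veh, 0.931 to 0.948 in LPS and T0+LPS), filterByExpr over the groups compared, 6 libraries at a time, and Benjamini-Hochberg adjustment over all symbols tested at 0.05. The sets of 3 libraries are separate cultures, and p-values measure the spread between them. Within groups, libraries differed by more than counting error (chi-square per degree of freedom 2.63 to 6.67), and none was a copy of another. Alternatives were DESeq2 1.42.0, limma 3.58.1 with voom, other scalings and filters, all 9 libraries in 1 fit, the replicate number as a block, rows kept apart, the HSP70 copies summed, and each library left out. The test was tested on simulated data. The 10 genes and the lists were chosen with earlier results of these data known. From each list, the 3 called genes with the largest change in each direction after LPS, with a mean of 5 CPM or more, and called genes of T0+LPS against LPS are named. Upstream sequences are from RefSeq (GRCm38.p6) and exon positions from the table and GENCODE. Intervals cover the fitted spread and counting error only.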

Additional observations from a re-analysis of the deposited data

How the results depend on the processing

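Replicate numbers did not pair the libraries: deviations of same-numbered libraries from their group means correlated between -0.01 and 0.05. With the replicate number as a block, T0+LPS against LPS gave 2 of the 10 genes higher, *Hspa1a* (adjusted p = 0.0172) and *Herpud1* (0.0459). The block changed no other call of the 10 genes. In T0+LPS against LPS, leaving out each library gave 0 to 2 of the 10 genes higher, 59 to 167 symbols higher and 82 to 191 lower, and 1 to 3 list genes higher and 1 to 2 lower. Without a filter the counts were 2 of the 10, 225 symbols higher and 285 lower, and 4 list genes higher. All 9 libraries in 1 fit gave 3 of the 10 and 4 list genes higher, and the summed HSP70 copies gave 0 and 1. With library totals, LPS against Veh gave 1694 symbols higher and 5411 lower, 3 of the 10 lower, and 39 list genes higher and 64 lower, T0+LPS against Veh gave 1659, 5523, 3, 39 and 61, and *Hsp90b1* reversed (-0.14 and -0.11). In T0+LPS against Veh, DESeq2 gave 0 of the 10 and 11 list genes lower, and leaving out libraries 0 to 1 of the 10 lower. List counts here include the 10 genes. Per kilobase of all bases, Veh, LPS and T0+LPS levels were 0.545, 0.780 and 0.771 CPM for *Hspa5*, 0.874, 0.498 and 0.356 for *Ddit3* and 0.170, 0.159 and 0.151 for *Atf4*, below the values per counted kilobase because few bases were counted. *Hspa1a*, *Hspa1b*, *Herpud1*, *Trib3* and *Dnajb9* kept direction and call in LPS against Veh under all alternatives run. *Hspa5*, *Ddit3* and *Atf4* are limited by their counted windows of 82, 48 and 283 bases, which held 239, 69 and 37 reads in all.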
